A study of Mus musculus with 24 samples.

Results

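The sarcomeric myosin heavy chains are the motor proteins of striated muscle, and 7 genes that encode them were followed here: Myh4, Myh1, Myh2, Myh7, Myh7b, Myh8 and Myh3. They were chosen as a gene family, by name and not by their values. All 7 were found among the 54532 genes of the deposited tables. The tables come from 24 samples of the left gastrocnemius, a calf muscle, of wild-type C57/BL6 mice, with 4 samples in each of 6 groups. The age of the animals is not given in the sources used here.

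Each sex had 3 groups. Sedentary controls received 2 injections of 20 µl saline at pH 7.2, separated by 5 days, and no contraction. Sedentary pain animals received the same injections at pH 5.0, and the second followed directly on 6 min of electrically evoked contraction of that muscle. Active pain animals had running wheels for 8 weeks and then the same acid and contraction protocol. Every sample is labelled 24 h. Acid and contraction always came together, so their parts cannot be told apart, and no group ran without the pain protocol. The labels number the samples of a group as replicates and do not say whether each is a separate animal; if some are not, the p-values measure technical spread.

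A muscle fibre builds its thick filaments from myosin, in which a pair of heavy chains carries the ATPase, and the heavy chain isoform largely sets how fast the fibre shortens. In adult mice Myh7 marks slow type I fibres, Myh2 fast oxidative type IIa fibres, Myh1 fast type IIx fibres and Myh4 the fastest, most glycolytic type IIb fibres. Myh3 and Myh8 are the embryonic and perinatal chains, which return in regenerating fibres, and Myh7b is a slow-type relative of Myh7. The mouse gastrocnemius is dominated by type IIb fibres and holds slow and IIa fibres mainly in its deep region.

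Of the 7 genes, 5 lie head to tail within 230.3 kb on the plus strand of chromosome 11 (GRCm38), in the order Myh3 (chr11:67078300-67102291), Myh2 (chr11:67171027-67197517), Myh1 (chr11:67200052-67224575), Myh4 (chr11:67238029-67260446) and Myh8 (chr11:67277124-67308634). Myh7 (chr14:54970684-54994626, minus strand) and Myh7b (chr2:155611212-155634307, plus strand) lie elsewhere. The 250 bases before the RefSeq start (GRCm38.p6) are shown for the 4 cluster genes whose promoters share a string, and for Myh7, whose level varied most between samples of a group. Capitals mark the longest string found in the first 4, TTCTAATTATATCC, and each match to the MEF2 consensus, the binding motif of a family of muscle transcription factors.
Myh2 (chr11:67170777-67171026, plus strand): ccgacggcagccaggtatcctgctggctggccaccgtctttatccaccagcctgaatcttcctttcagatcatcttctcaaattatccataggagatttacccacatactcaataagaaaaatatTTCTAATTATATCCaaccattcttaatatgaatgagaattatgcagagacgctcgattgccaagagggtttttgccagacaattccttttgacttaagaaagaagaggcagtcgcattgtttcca
Myh1 (chr11:67199852-67200101, plus strand): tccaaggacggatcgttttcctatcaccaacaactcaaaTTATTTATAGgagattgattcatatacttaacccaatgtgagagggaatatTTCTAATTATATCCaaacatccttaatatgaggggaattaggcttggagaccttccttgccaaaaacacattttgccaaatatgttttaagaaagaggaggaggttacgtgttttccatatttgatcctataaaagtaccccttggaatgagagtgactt
Myh4 (chr11:67237562-67237811, plus strand): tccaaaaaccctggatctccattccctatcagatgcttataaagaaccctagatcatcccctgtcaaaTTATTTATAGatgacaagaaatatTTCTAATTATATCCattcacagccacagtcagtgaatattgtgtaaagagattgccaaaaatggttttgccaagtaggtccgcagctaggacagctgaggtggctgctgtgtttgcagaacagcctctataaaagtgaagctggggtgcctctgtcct
Myh8 (chr11:67276874-67277123, plus strand): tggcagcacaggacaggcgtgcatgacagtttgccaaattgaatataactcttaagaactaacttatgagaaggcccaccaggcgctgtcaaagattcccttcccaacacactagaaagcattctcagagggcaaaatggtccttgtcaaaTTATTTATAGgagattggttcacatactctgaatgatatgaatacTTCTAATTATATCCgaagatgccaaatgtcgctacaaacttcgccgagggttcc
Myh7 (chr14:54994627-54994876, minus strand): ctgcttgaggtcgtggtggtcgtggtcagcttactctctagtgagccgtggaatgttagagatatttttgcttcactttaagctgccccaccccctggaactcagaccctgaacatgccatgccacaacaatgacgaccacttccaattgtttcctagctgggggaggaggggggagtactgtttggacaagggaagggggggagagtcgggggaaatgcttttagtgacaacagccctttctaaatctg

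The shared string of 14 bases began at position -125 in Myh2, -160 in Myh1, -158 in Myh4 and -54 in Myh8, counted from the RefSeq start. Because it was defined as the string these 4 genes share, their matches are given by construction. With both strands searched, no other of the 32851 RefSeq promoter windows (250 bases before to 50 after the start) held it, so it was present in 0.0122% of them. The MEF2 consensus matched in Myh1, Myh4 and Myh8, at -211, -182 and -99, and in 3.19% of all windows. Each of these matches overlaps TATAAA read on the opposite strand, a string found in 13.6% of windows. The Myh7, Myh3 and Myh7b windows held neither the shared string nor the MEF2 consensus. A match describes these letters only. For Myh4, Myh1 and Myh7b the RefSeq start (67237812, 67200102 and 155611243) differs from the GENCODE start of the gene. Myh7 has 2 RefSeq entries, and the window nearest the GENCODE start was used.

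Total counts per sample ran from 17612139 to 34039699, and the 7 genes took 2.52% to 6.24% of them. The tissue label was checked with Acta1, the skeletal muscle actin, which had 19424 to 46580.3 CPM, the usual library-size-normalised read count (edgeR, with TMM factors) across the 24 samples. Library names put replicates 1 and 2 of each group apart from replicates 3 and 4, and what that number stands for is not given. Reads can be ambiguous within the family. Of the 100-base windows of the longest coding transcript, 14.7% for Myh1, 11.2% for Myh2, 13.9% for Myh7, 6.61% for Myh8, 3.85% for Myh4 and 1.15% for Myh3 also occur in another gene's transcript, and none for Myh7b. Myh1 and Myh2 share most with each other, and Myh7 with the cardiac gene Myh6. How the authors treated reads that fit several genes is not given, so the values of these pairs carry that uncertainty.

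Myh4 was the most abundant member in all 24 samples. Per kilobase of transcript its mean over the 24 samples was 7801 CPM, against 194 for Myh1, 86.1 for Myh2, 16.2 for Myh7, 3.25 for Myh8, 0.160 for Myh3 and 0.154 for Myh7b. The lowest Myh4 value, 3326 CPM per kilobase, lay above the highest Myh1 value, 394. Myh1 exceeded Myh2 in 24 of 24 samples, although their ranges over samples overlapped. Myh2 exceeded Myh7 in 23 of 24 and Myh7 exceeded Myh8 in 18 of 24. Myh8 exceeded Myh3 in 24 of 24, while Myh3 and Myh7b could not be ordered, with Myh3 higher in 12 of 24. One group departed from this order: in male active pain Myh8 averaged 3.40 CPM per kilobase and Myh7 1.45, with Myh8 higher in 3 of 4 samples and the values overlapping.

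**Figure D1:**
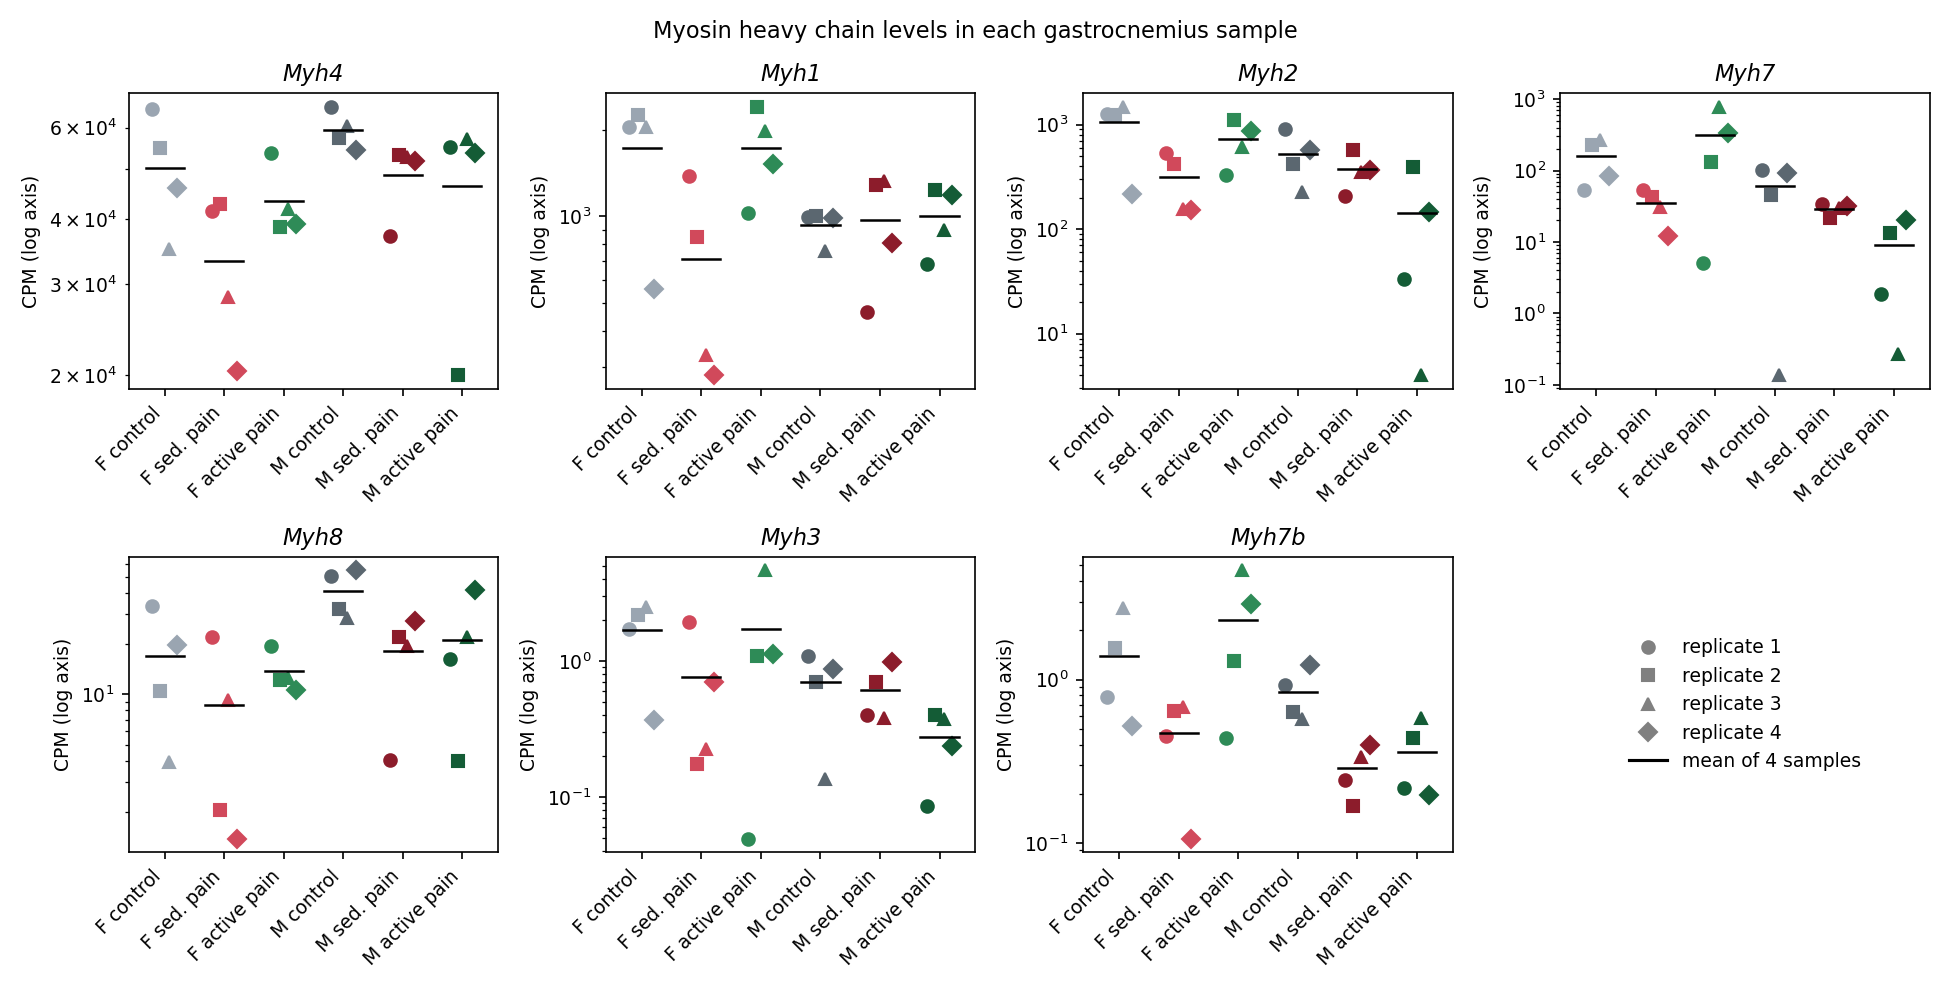
CPM of each myosin heavy chain gene (log axes) in each of the 24 samples, by sex (F, M) and group; symbols give the replicate number and bars the mean of 4 samples. Myh7 ranged from 0.136 to 267 CPM within the 2 control groups alone, whereas Myh4 stayed between 20007 and 65801 CPM in all samples.

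Among the fast chains, Myh4 stood at 65185, 54902, 35064 and 45935 CPM in replicates 1 to 4 of the control females, at 41561, 42867, 28346 and 20408 with sedentary pain, and at 53754, 38671, 41853 and 39179.7 with active pain. Control males had 65801, 57412, 60461 and 54332 CPM of Myh4, those with sedentary pain 37145, 53193, 52745 and 51872, and those with active pain 55042, 20007, 57037 and 53524. The female groups overlapped, with 2 of the 4 sedentary pain samples below every control and the other two inside the control range. In males all 4 sedentary pain samples lay below all 4 controls. The low male values were replicate 1 of sedentary pain and replicate 2 of active pain.

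Myh1, the IIx chain, stood at 2048, 2240.0, 2034 and 562 CPM in control females, 1384, 851, 329.7 and 281 with sedentary pain, and 1025, 2396, 1983 and 1521 with active pain. Control males had 999, 1005, 756 and 986 CPM, those with sedentary pain 465, 1289, 1324 and 807, and those with active pain 687, 1232, 895 and 1183. Female control replicate 4 stood below the other 3 controls and inside the sedentary pain range. In males the 3 groups overlapped.

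Myh2, the IIa chain, stood at 1266, 1236, 1475 and 218 CPM in control females, 540.3, 417, 157 and 154 with sedentary pain, and 326, 1102, 606 and 876 with active pain. The same female control, replicate 4, was low, and without it the sedentary pain and control values would not overlap. Control males had 899, 419, 227 and 569 CPM of Myh2, those with sedentary pain 208, 574, 355 and 371, and those with active pain 33.1, 389, 4.001 and 146. The male active pain samples spanned a 97.2-fold range, from 117 counts in replicate 3 to 9723 in replicate 2. In that replicate 3 Myh4 stood at 57037 CPM, the highest of its group.

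Myh7, the slow chain, stood at 54.0, 230.2, 267 and 84.9 CPM in control females, 54.0, 42.9, 30.9 and 12.2 with sedentary pain, and 5.04, 131, 778 and 334 with active pain. All but 1 of the female sedentary pain values lay below the lowest control, and replicate 1 equalled it to 3 digits. Control males had 103, 45.4, 0.136 and 93.1 CPM of Myh7, those with sedentary pain 34.1, 21.8, 29.7 and 31.5, and those with active pain 1.85, 13.6, 0.274 and 20.5. Control replicate 3 rested on 4 counts and active pain replicate 3 on 8 counts, in libraries where other samples of the same groups had up to 3024 and 518. Within a group the highest value was 760-fold the lowest in male controls, 154-fold in female active pain and 1.56-fold in male sedentary pain. In bulk tissue, fewer slow fibres in the piece taken and less Myh7 RNA per fibre cannot be told apart.

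Myh7b was near the detection limit, with 3 to 121 counts per sample. It averaged 1.40 ± 0.993 CPM (SD, n = 4) in control females, 0.470 ± 0.262 with sedentary pain and 2.33 ± 1.86 with active pain. In males the means were 0.838 ± 0.300, 0.287 ± 0.103 and 0.359 ± 0.185 CPM. Its male control values, 0.921, 0.629, 0.577 and 1.23, all lay above the male sedentary pain values, 0.242, 0.167, 0.338 and 0.400.

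Of the developmental chains, Myh8 stood at 33.6, 10.5, 3.94 and 19.7 CPM in control females, 21.8, 2.04, 9.26 and 1.38 with sedentary pain, and 19.3, 12.2, 12.6 and 10.6 with active pain. Control males had 50.5, 31.9, 28.6 and 54.6 CPM of Myh8, those with sedentary pain 4.04, 21.8, 19.5 and 27.3, and those with active pain 16.2, 3.998, 21.8 and 41.7. The male sedentary pain values all lay below the control values, and the low samples, sedentary pain replicate 1 and active pain replicate 2, were the ones in which Myh4 was low. Myh3, the embryonic chain, had 1 to 121 counts and 0.0490 to 4.66 CPM across the 24 samples. Its group means ran from 0.275 ± 0.145 CPM in male active pain to 1.73 ± 2.01 in female active pain (SD, n = 4).

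As a share of the summed counts of the 7 genes, Myh4 made up 90.3% to 98.7% in the 24 samples. The group means were 94.3% ± 3.26 (SD, n = 4) for control females, 97.1% ± 1.237 with sedentary pain and 93.7% ± 2.66 with active pain, and 97.4% ± 0.654, 97.3% ± 0.734 and 96.7% ± 2.93 in the male groups. The share was 2.85 percentage points higher in female sedentary pain than in control (exact two-sided permutation test, p = 0.143, adjusted over 6 comparisons 0.429) and 3.40 points lower in active than in sedentary pain (exact p = 0.0857, adjusted 0.429). The other 4 differences were 0.689 points or smaller in size, and none passed (adjusted p = 0.971 for each, exact permutation test). With 4 against 4 samples the smallest p possible is 0.0286 before adjustment. After adjustment over 6 comparisons, a comparison at that p could not pass unless several others reached it too. The lack of a pass therefore cannot decide whether the Myh4 share differed between any 2 groups. Myh1 took 1.14% to 5.69% of the counts and Myh2 0.00690% to 3.80%.

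**Figure D2:**
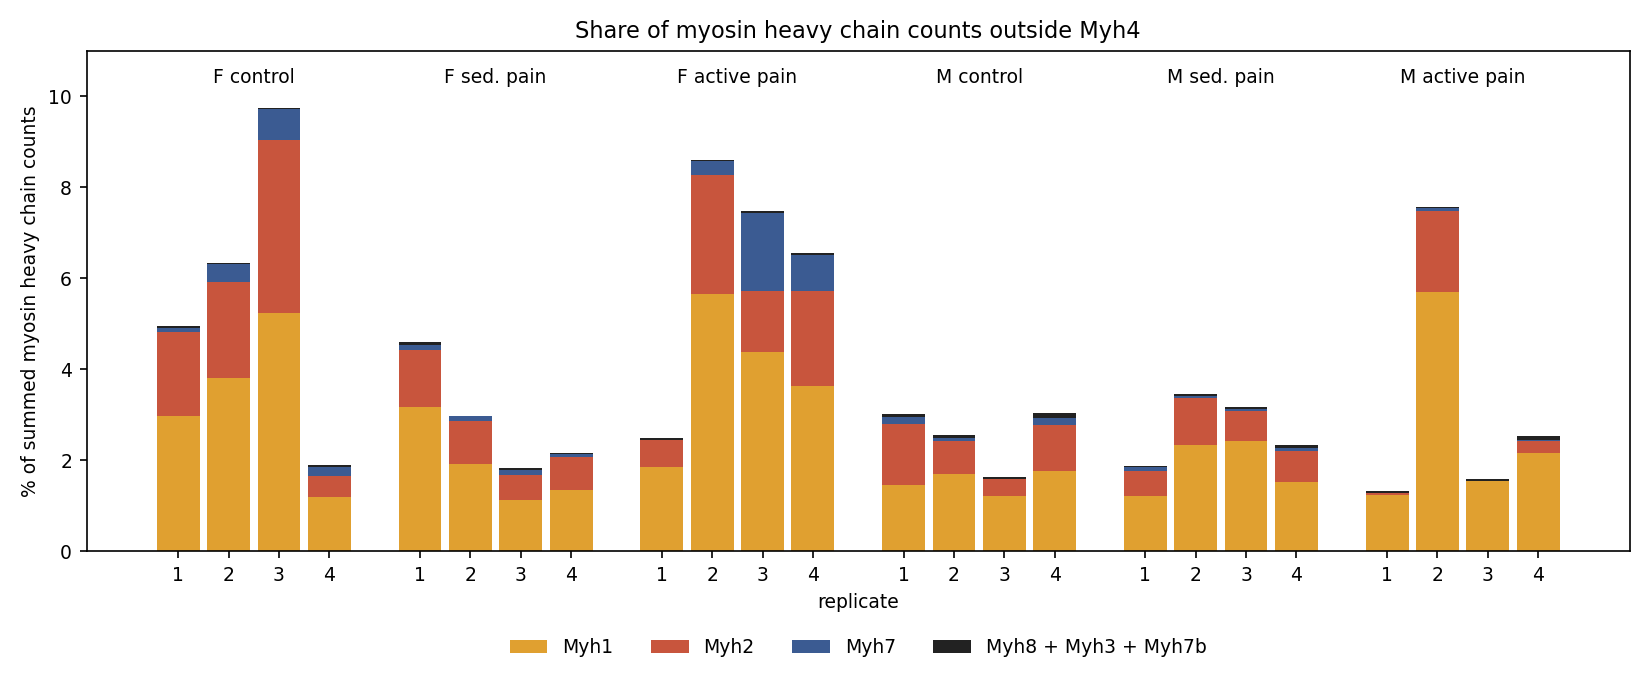
Share of the summed myosin heavy chain counts (%) that did not come from Myh4, stacked for Myh1, Myh2, Myh7 and the other three genes, 1 bar per sample. The tallest bar is female control replicate 3, where Myh4 held 90.3%, and the Myh7 part is widest in female active pain replicate 3, at 1.72%.

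The first comparison asked how the genes differ between sedentary animals with and without the pain protocol. In females, Myh2 fell by 1.74 ± 0.60 on the log2 scale (SE; edgeR quasi-likelihood test, adjusted p = 0.0438) and was the 1 of 7 genes to pass, where 33.5% of the 14511 genes tested passed in either direction and 13.9% as lower. The call was lost in 15 of 22 alternatives, among them leaving out control replicate 1, 2 or 3, sedentary pain replicate 2, 3 or 4, or active pain replicate 3 or 4, which enter the same fit (adjusted p = 0.0525 to 0.118, edgeR). Within replicates 1 and 2 the log2 fold change of Myh2 was -1.39 ± 0.54 (adjusted p = 0.201, with 1.67% of all genes called) and within replicates 3 and 4 -2.45 ± 0.78 (0.0652, with 22.4% called). The other six had log2 fold changes of -1.29 ± 0.54 for Myh1 (adjusted p = 0.0825), -0.61 ± 0.27 for Myh4 (0.0921), -2.20 ± 1.01 for Myh7 (0.106), -1.59 ± 0.75 for Myh7b (0.113), -0.97 ± 0.78 for Myh8 (0.334) and -1.14 ± 0.97 for Myh3 (0.365). Single samples weighed on the developmental chains: without sedentary pain replicate 1 Myh8 was at -1.99 and Myh3 at -2.13, and without control replicate 1 Myh8 was at -0.41. All 7 estimates were negative, with a median of -1.29 against -0.02 over all genes tested. At an unadjusted p under 0.05 there were 3 of 7 genes, Myh2, Myh1 and Myh4, beside 47.6% of all genes. The groups overlapped for all 7, where 26.3% of genes had groups that did not. The share of counts from mitochondrial genes moved with these groups. It was 8.22%, 3.85%, 5.86% and 2.75% in female sedentary pain, below all 4 female controls (8.59% to 11.02%), and 6.67% to 11.4% in female active pain. The male samples with low Myh4, sedentary pain replicate 1 and active pain replicate 2, had the lowest share of their groups, 4.53% and 5.97%. The part of this share in the myosin values was not tested.

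In male sedentary pain against control 0 of 7 genes passed in edgeR, as did 0% of the 14404 genes tested. There 1 member, Myh7b, had an unadjusted p under 0.05, as did 8.84% of genes. DESeq2 also called 0 members, and its share of all genes is given with the macrophage markers below. Myh7b had a log2 fold change of -1.52 ± 0.41 (edgeR adjusted p = 0.296). Myh4, at -0.27 ± 0.27 (adjusted p = 0.661), Myh7b and Myh8, at -1.17 ± 0.63 (adjusted p = 0.608), had groups that did not overlap, all lower with pain, against 8.07% of genes in either direction and 4.12% in this one. Myh1 was at 0.07 ± 0.30 and Myh7 at -1.03 ± 1.19 (adjusted p = 0.901 and 0.676). Without sedentary pain replicate 1 Myh4 was at -0.16, and without control replicate 1 Myh7 was at -0.62. With the replicate number as a block Myh7 changed sign, to 0.037.

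The second question was whether animals that had run before the protocol differ. Against female controls, female active pain animals gave 0 of 7 calls in edgeR, with 0% of 14511 genes called and 0 members at an unadjusted p under 0.05 (7.03% of genes). DESeq2 called 0 members, with its share of all genes given beside the macrophage markers below. All 7 overlapped between these groups, where 5.44% of genes did not. The edgeR estimates lay between -0.52 ± 0.59 for Myh2 (adjusted p = 0.847) and 0.97 ± 0.98 for Myh7 (adjusted p = 0.844). With 1 sample left out Myh2 lay between -0.86 (without control replicate 4) and -0.30 (without active pain replicate 1). Myh7 changed sign, at -0.041 without active pain replicate 3 and -1.06 in replicates 1 and 2 alone. Against female sedentary pain the estimates of all 7 were positive, with a median of 1.22 against 0.01 for all genes. None passed in edgeR, where 11.9% of genes did, and the groups overlapped for all 7, where 11.8% of genes had groups that did not. The closest were Myh7b at 2.34 ± 0.75 (edgeR adjusted p = 0.0605), Myh7 at 3.17 ± 1.05 (0.0665) and Myh1 at 1.30 ± 0.54 (0.125), the 3 with an unadjusted p under 0.05 (32.2% of genes). DESeq2 called 2 of them, Myh7 (adjusted p = 0.0157) and Myh7b (0.0116), where it called 19.2% of the 16449 genes it tested. Myh4 was at 0.40 ± 0.27 (edgeR adjusted p = 0.312). This comparison and the first share the 4 female sedentary pain samples, so their opposite signs are not independent.

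In males, active pain against control gave 0 of 7 calls in edgeR and in DESeq2. In edgeR 0% of genes were called, while DESeq2 did call some, a share given with the macrophage markers below. At an unadjusted p under 0.05 in edgeR there were 2 members, Myh7b and Myh3 (7.25% of genes). The groups overlapped for all 7, where 10.4% of genes had groups that did not. Myh7 had a log2 fold change of -2.74 ± 1.27 (edgeR adjusted p = 0.634), Myh2 -1.89 ± 0.95 (0.634), Myh3 -1.32 ± 0.59 (0.634) and Myh7b -1.20 ± 0.40 (0.516). Without active pain replicate 2 Myh2 was at -3.11. Myh1 stood at 0.10 ± 0.30. Active against sedentary pain in males also gave 0 of 7 calls by both tools. In edgeR 0% of genes were called and 0 members had an unadjusted p under 0.05 (0.84% of genes). Myh7 alone among the 7 had groups that did not overlap, lower in active pain (-1.72 ± 1.23, edgeR adjusted p = 1.0), where 0.653% of genes had such groups in either direction and 0.215% in this one.

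**Figure D3:**
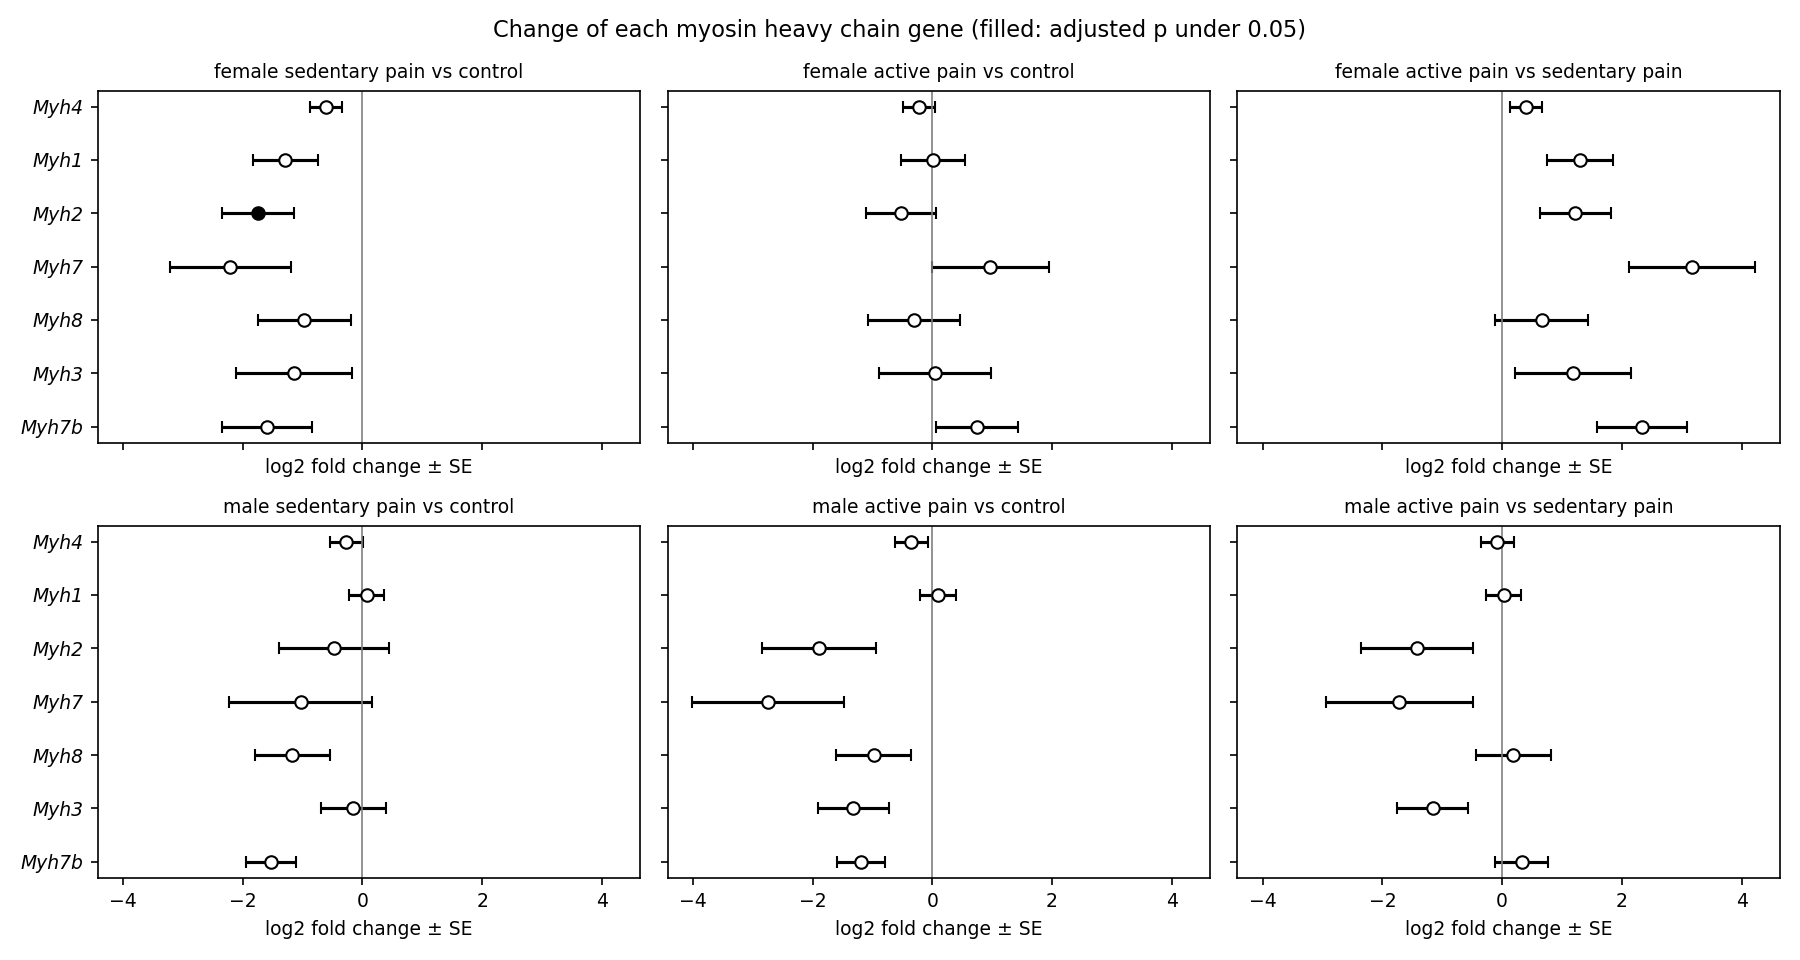
log2 fold change with its SE for each of the 7 genes in the 6 comparisons within a sex (edgeR, 4 against 4 samples); a filled point has an adjusted p under 0.05. The filled point is Myh2 in female sedentary pain against control, and the widest bars belong to Myh7.

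The changes were then compared between the sexes. For active against sedentary pain, the change of Myh7 in males minus that in females was -4.85 ± 1.71 on the log2 scale (edgeR adjusted p = 0.242), that of Myh2 -2.60 ± 1.17 (adjusted p = 0.315) and that of Myh7b -1.98 ± 0.94 (0.331). None of the 7 passed for any of the 3 contrasts in edgeR or DESeq2. In edgeR 0% of the 15103 genes passed in each. For active against sedentary pain DESeq2 did call some genes, a share given with the slow fibre markers below. At an unadjusted p under 0.05 in edgeR there were 0, 2 and 3 members for sedentary pain against control, active pain against control and active against sedentary pain, beside 9.57%, 2.03% and 14.7% of genes. A sex difference in how Myh7 responded was therefore not shown. Male and female controls differed in 0 of 7 genes at the threshold in edgeR, with 2.83% of genes called and 0 members at an unadjusted p under 0.05 (14.9% of genes). DESeq2 called 0 members, and its share of all genes is given with the adipocyte markers below. The largest of these differences was Myh7 at -1.40 ± 1.16 (edgeR adjusted p = 0.573), and Myh8 was at 1.29 ± 0.75 (0.425).

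Among the 7 genes, samples of 1 group differed most in Myh7. The SD of log2 CPM within groups was 2.52 for Myh7, larger than in 99.95% of the 15103 genes tested, whose median was 0.361. A larger SD was found in 6 genes, and in 0 of the 11150 genes whose log2 CPM averaged 1 or more. A wide spread was not particular to Myh7. The slow troponins Tnnc1, Tnni1 and Tnnt1 had an SD of 2.02, 1.94 and 1.73, exceeded by 7, 9 and 23 of these 11150 genes. For the slow light chains Myl2 and Myl3 it was 1.78 and 1.72, exceeded by 17 and 24. Among the 7 myosin genes, Myh2 followed at 1.44 (98.8%), then Myh3 at 1.30 (98.1%), Myh8 at 1.23 (97.6%), Myh7b at 0.88 (92.4%) and Myh1 at 0.72 (87.3%). Myh3 and Myh7b had low counts. Myh4 had an SD of 0.42, larger than in 60.1% of genes. Over the 24 samples the range was 11.9 log2 units for Myh7, 8.50 for Myh2 and 1.72 for Myh4.

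**Figure D4:**
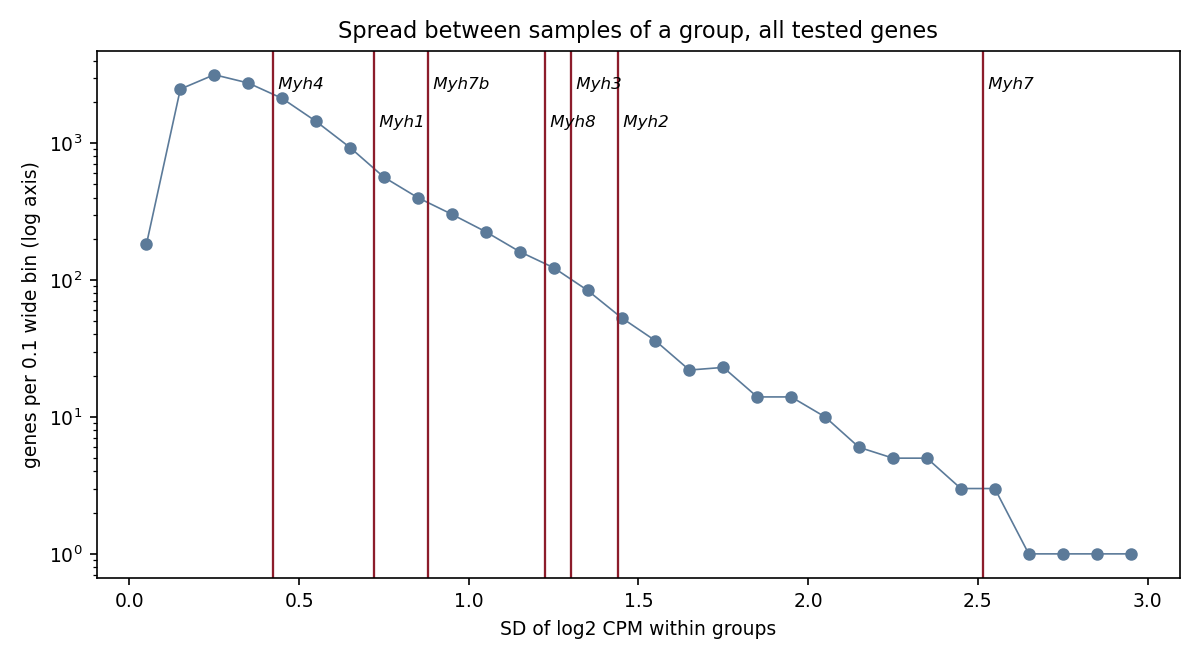
Number of tested genes (log axis) by the SD of their log2 CPM within groups, in bins of 0.1, with the 7 myosin genes as vertical lines. Myh4 lies among the bulk of genes at 0.42 and Myh7 at the far right at 2.52.

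Myh7 and Myh2 moved together across the 24 samples. Pearson's r of log2 CPM was 0.746 (permutation p = 1.7e-04, adjusted over 6 pairs 0.00102) and Spearman's rho 0.783 (permutation p = 2e-05, adjusted 9e-05). It was 0.587 without the 2 samples farthest from the median of Myh2, 0.618 after the group means were removed, 0.844 in replicates 1 and 2 and 0.736 in replicates 3 and 4. Myh1 and Myh2 had r = 0.536 (permutation p = 0.00671, adjusted 0.0201) and rho = 0.781 (adjusted permutation p = 9e-05). Their r was 0.562 without the 2 samples farthest from the median of Myh1 and 0.821 without the 2 farthest for Myh2. It was 0.617 within groups, 0.748 in replicates 1 and 2 and 0.383 in replicates 3 and 4. For Myh1 and Myh7 r was 0.434 (adjusted permutation p = 0.0674) and rho 0.554 (adjusted 0.0103). Their r was 0.513 without the 2 samples farthest for Myh1, 0.517 without the 2 farthest for Myh7 and 0.367 within groups. Myh4 did not pass with any of them, at r = 0.327 with Myh1, -0.02 with Myh2 and -0.15 with Myh7 (adjusted permutation p = 0.180, 0.909 and 0.591).

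Over the same 24 samples, the genes whose log2 CPM was most like each member's were found among 11145 expressed genes, as a description. Nearest to Myh7 were the slow troponins Tnnc1 (r = 0.963), Tnni1 (0.962) and Tnnt1 (0.945), which regulate contraction on the thin filament of slow fibres. In male control replicate 3, where Myh7 had 4 counts, Tnnc1 stood at 0.407 CPM against 12.97 to 27.2 in the other controls. In female active pain replicate 3, where Myh7 reached 778 CPM, Tnnc1 was at 421. Nearest to Myh2 were Myl3 (0.935) and Myl2 (0.910), the slow essential and regulatory light chains, and Myoz2 (0.891), a Z-disc protein of oxidative fibres. In male active pain replicate 3, with Myh2 at 4.001 CPM, Myl2 was at 0.171 and Myl3 at 0.342.

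Nearest to Myh4 were Mybpc2, the fast myosin-binding protein C (r = 0.967), Camk2b, a calmodulin kinase subunit (0.960), and D17Wsu92e (0.938). Nearest to Myh1 were Fndc5 (0.890), Coq8a, a coenzyme Q synthesis protein (0.880), and Mterf2 (0.868). For Myh8 they were Impad1 (0.930), Tti1 (0.928) and Map2k4 (0.922). Myh3 and Myh7b both had Atp2a2, the calcium pump of slow fibres, among their 3 nearest genes, at r = 0.834 and 0.803. Beside it, Myh3 had Myom3 (0.787) and Myoz2 (0.750), and Myh7b had Idh2 (0.832) and Ift81 (0.804).

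**Figure D5:**
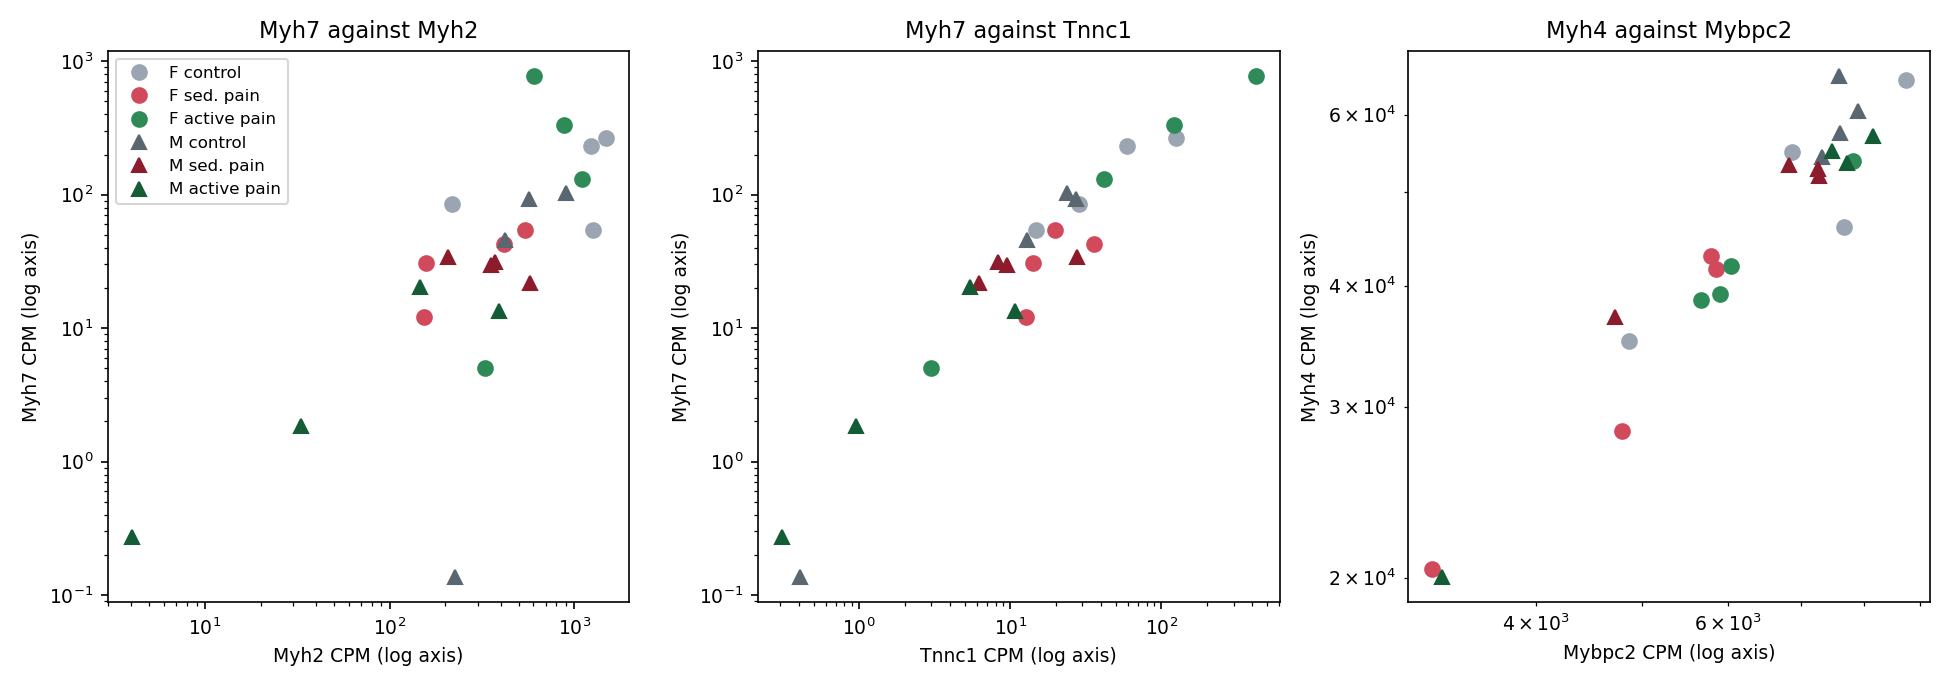
CPM (log axes) of Myh7 against Myh2, of Myh7 against the slow troponin Tnnc1 and of Myh4 against Mybpc2, 1 point per sample, coloured by group, circles for females and triangles for males. The points at the low end of Myh7, at 0.136 and 0.274 CPM, come from a male control and a male active pain sample.

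A neighbour in the cluster, Myhas, was named after its values had been seen. It is an antisense RNA on the minus strand (chr11:67211256-67237573) that lies between Myh4 and Myh1 and overlaps Myh1. Of the other non-coding neighbours, 2310065F04Rik stood at 68.6 to 135 CPM in control females. It was at 55.1 to 83.4 CPM with sedentary pain and 65.7 to 111 with active pain. The matching male ranges were 150 to 170, 85.3 to 180 and 90.7 to 125 CPM. The antisense RNA 9430073C21Rik had at most 22 counts per sample. The female values of both overlapped between the groups. Myhas stood at 64.9, 56.8, 58.7 and 47.9 CPM in control females, 30.02, 37.5, 33.6 and 24.8 with sedentary pain, and 56.96, 47.2, 56.2 and 40.5 with active pain. All sedentary pain samples lay below all samples of both other groups. Against control, 26.3% of all genes had groups that did not overlap in either direction, and 11% in this one. Against active pain these shares were 11.8% and 5.44%. Myhas fell by 0.88 ± 0.16 on the log2 scale from control to sedentary pain (edgeR adjusted p = 0.00347, past the threshold in 21 of 22 alternatives) and was higher by 0.69 ± 0.16 in active than in sedentary pain (adjusted p = 0.0328, 13 of 22 alternatives). The second call was lost without active pain replicate 1, 2 or 4 or sedentary pain replicate 3 or 4 (adjusted p = 0.0636 to 0.101). Nearly all calls of this comparison were lost in those 5 fits: of 14679 to 14902 genes tested, 0 were called in 4 of them and 3 in the other. Male controls had 67.6 to 75.9 CPM of Myhas, above all samples with sedentary pain (36.4 to 60.7) and active pain (43.9 to 59.0). Here 8.07% and 10.4% of all genes had groups that did not overlap in either direction, and 4.12% and 4.06% in this one. In males it was at -0.53 ± 0.15 (adjusted p = 0.311) and -0.49 ± 0.15 (0.478) in sedentary and active pain against control. The library kit keeps strand, but whether the counting used it is not given, and without it Myhas and Myh1 reads cannot be told apart where the genes overlap.

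Related genes of the thick filament and its control were counted in female sedentary pain against control, beside the 33.5% of all genes called, 19.6% as higher and 13.9% as lower. With 1 sample left out, between 16.9% and 44.9% of all genes were called. Of 8 tested genes for thick filament and M-band proteins 5 fell and 0 rose (median -0.66). Among them, Myom1, which ties the filaments at the M-band, fell by 0.67 ± 0.18 (edgeR adjusted p = 0.0179), Ttn, the giant spring titin, by 0.66 ± 0.22 (0.0365), Mybpc1, the slow myosin-binding protein C, by 0.99 ± 0.33 (0.0385), and Myom3 by 1.83 ± 0.63 (0.0441). Leaving out 1 sample at a time left between 1 and 6 of the 8 lower, with 1 without control replicate 1 or 2. Myom1 passed in all 12 such fits, against 7 for Ttn, 5 for Mybpc1 and 4 for Myom3. Of 8 light chain and kinase genes 1 fell, Mylk2, the skeletal light chain kinase (0.96 ± 0.27, 0.0210; lost without control replicate 1 or sedentary pain replicate 4), and Myl3, Myl1 and Myl2 were at -1.72 ± 0.72 (0.0800), -0.61 ± 0.27 (0.0900) and -1.72 ± 0.83 (0.118). Of 13 regulators of fibre type 7 fell and 0 rose, with a median of -0.66. Among them were Tead1 (by 1.22 ± 0.27, adjusted p = 0.00844), Tbx15 (0.73 ± 0.19, 0.0150) and Sox6, a repressor of slow genes (0.67 ± 0.20, 0.0263). Between 2 and 9 of the 13 were lower when 1 sample was left out, with 2 without control replicate 1, control replicate 2 or sedentary pain replicate 4. Tead1 and Tbx15 passed in all 12 of these fits and Sox6 in 9.

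Of 8 genes for myosin folding and turnover 2 rose and 2 fell. The small heat shock protein Cryab rose by 1.69 ± 0.22 (edgeR adjusted p = 0.00251) and the chaperone Hsp90aa1 by 0.58 ± 0.14 (0.0101), while the ubiquitin ligase Trim55 fell by 0.71 ± 0.22 (0.0275) and the methyltransferase Smyd1 by 0.62 ± 0.20 (0.0360). Of 6 tested myosin heavy chains outside the 7, the non-muscle Myh9 rose by 1.06 ± 0.20 (0.00444). The smooth muscle Myh11 fell by 1.12 ± 0.23 (0.00619) and the cardiac Myh6 fell by 2.98 ± 0.93 (0.0310), the latter on at most 38 counts in these groups, and Myh13 was at -1.81 ± 0.70 (0.0639). Cryab, Hsp90aa1, Myh9 and Myh11 passed in all 12 fits that left out 1 sample, Trim55 and Myh6 in 8 and Smyd1 in 6. In female active against sedentary pain, Cryab and Hsp90aa1 fell by 1.15 ± 0.22 and 0.73 ± 0.14 and Myh9 by 1.01 ± 0.20 (each adjusted p = 0.0328), and Myh6 rose by 3.48 ± 0.91 (0.0355). In this comparison 2.51% of all genes rose and 9.41% fell. Cryab, Hsp90aa1 and Myh9 passed in 7 of the 12 fits that left out 1 sample and Myh6 in 6, where 5 of the 12 called 3 or fewer of all genes. No gene of these 5 lists passed in edgeR in any male comparison within a sex or in female active pain against control, as was so for all genes. DESeq2 called 1 gene of the lists in these comparisons, Mylk2 in male sedentary pain against control. Its shares of all genes against control are given with the macrophage markers below.

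Markers of other cells were counted in the same comparisons. Of 12 macrophage and monocyte markers 11 rose in female sedentary pain against control, where 19.6% of all genes rose, and the same number in each fit that left out 1 sample. In female active against sedentary pain 9 of the 12 fell, where 9.41% of all genes did, and 0 in the 5 fits that called 3 or fewer of all genes. Their summed level was 458 to 4959 CPM in female sedentary pain, 94.5 to 208 in female controls and 231 to 487 in female active pain, and no marker was at 0 in any sample. Female sedentary pain replicate 4, the lowest sample for Myh4 in its sex, had the highest macrophage sum. In female active pain against control all 12 estimates were positive as well. None passed in edgeR, as was so for all genes, and DESeq2 called 3 (Cd68, Fcgr1 and Itgam; 0.89% of all genes). An unadjusted p under 0.05 was found for 7 of the 12 (7.03% of all genes), and the groups did not overlap for 6 (5.44%). In both male pain groups against control all 12 estimates were positive. None of the 12 passed in edgeR, as was so for all genes, but 11 had an unadjusted p under 0.05 in sedentary pain (8.84% of all genes) and 11 in active pain (7.25%). DESeq2 called 7 and 4 of them, beside 1.76% and 0.773% of all genes. The groups did not overlap for 7 and 10 of the 12, against 8.07% and 10.4% of all genes. The sums were 66.7 to 139 CPM in male controls, 138 to 876 with sedentary pain and 214 to 521 with active pain. The highest sums of both pain groups were those of sedentary pain replicate 1 and active pain replicate 2, the low samples for Myh4. Of 8 adipocyte markers 7 fell in female sedentary pain against control, where 13.9% of all genes did. With 1 sample left out, between 1 and 8 fell: 1 without sedentary pain replicate 4, 2 without control replicate 3, control replicate 4 or sedentary pain replicate 2, and 4 without sedentary pain replicate 1. Their sum was 625, 487, 5954 and 3101 CPM in female control replicates 1 to 4 and 264 to 802 with sedentary pain, so that 2 of the 4 controls lay above the sedentary pain range. Of these, replicate 3 had the lowest Myh4 of the controls and replicate 4 the lowest Myh1 and Myh2. In female active pain against control all 8 adipocyte estimates were negative (median -2.42), with 7 at an unadjusted p under 0.05 (7.03% of all genes) and 0 called by edgeR or DESeq2. In male against female controls all 8 were negative too (median -2.29), with 2 called in edgeR (2.83% of all genes) and 3 in DESeq2 (4.23%). The edgeR calls fell to 0 without female control replicate 3 or 4 or male control replicate 1, 2 or 4, and rose to 3 without female control replicate 1 or 2 or male sedentary pain replicate 1. The part of these cells in the myosin values was not tested.

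The slow fibre markers, 8 genes with no myosin heavy chain among them, summed to 253, 627, 897 and 271 CPM in control females and 108, 548, 2308 and 1059 with active pain, in both groups in the same order of samples as Myh7. With sedentary pain they summed to 288, 348, 302 and 369.6 CPM, highest in replicate 4, where Myh7 was lowest. Of the 8, 1 fell against control, Pln (by 1.49 ± 0.37, edgeR adjusted p = 0.0129), a share close to the 13.9% of all genes that fell. The estimates of this comparison were negative for 7 markers and positive for 1, with a median of -1.37 against -0.02 for all genes. At an unadjusted p under 0.05 there were 3 of 8, beside 47.6% of all genes. In active against sedentary pain 2 of 8 rose, Casq2 by 1.42 ± 0.41 (edgeR adjusted p = 0.0446) and Pln by 1.45 ± 0.37 (0.0333), with all 8 estimates positive, where 2.51% of all genes rose. Casq2 passed in 3 and Pln in 5 of the 12 fits that left out 1 sample, where 5 fits called 3 or fewer of all genes. DESeq2 called 6 of the 8, beside 19.2% of all genes, with Tnnc1 and Tnnt1 among them (adjusted p = 0.0410 and 0.0331). In males the slow markers summed to 346, 184, 84.99 and 315 CPM in controls, 302, 186, 178 and 187 with sedentary pain and 85.2, 217, 80.2 and 134.5 with active pain. These sums overlapped between the male groups. The estimates of the 8 markers in male active pain were negative for 8 of 8 against control (median -0.92) and for 7 of 8 against sedentary pain (median -0.71). None passed in edgeR, as was so for all genes, and DESeq2 called 0. At an unadjusted p under 0.05 there were 1 and 0 markers, beside 7.25% and 0.84% of all genes. For the change from sedentary to active pain in males minus that in females, all 8 were negative (median -2.43) and 7 had an unadjusted p under 0.05, beside 14.7% of all genes. None of these 8 sex differences passed in edgeR, and DESeq2 called 1, Pln, beside 0.636% of all genes. The 8 fast fibre markers summed to 150964 to 206022 CPM in female controls and 110157 to 216033 in female sedentary pain, with 1 of 8 lower, Actn3 (by 0.67 ± 0.21, edgeR adjusted p = 0.0298), again beside 13.9% of all genes. This call was lost without control replicate 1, 2 or 4 or sedentary pain replicate 3 or 4. Of 8 tested markers of regenerating fibres and satellite cells 1 rose, Myog, a transcription factor of differentiating myoblasts, by 1.36 ± 0.26 (adjusted p = 0.00413), where 19.6% of all genes rose, while Myh3 and Myh8 were not called. Of 5 endothelial markers 2 fell, beside the same 13.9%, with 1 left without control replicate 2, 3 or 4 or sedentary pain replicate 2 or 3 and 0 without sedentary pain replicate 4. Of 5 Schwann cell markers 0 passed in edgeR or DESeq2 and 0 had an unadjusted p under 0.05, where 33.5% and 47.6% of all genes did.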

How the data were processed

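RNA was sequenced from 24 left gastrocnemius samples (stranded TruSeq libraries, NovaSeq paired ends, per the labels' protocols). The deposited values are whole-number counts of reads per gene, 1 file per sample, made by the authors. The submitters' processing notes name HISAT2 2.1.0, Salmon 0.9.1, featureCounts and DESeq2 1.24.0 with mm10 and GRCm38.p6, in no stated role or order. Strand use and the treatment of reads that fit several genes are not given in the sources used here. Counts were analysed as deposited with edgeR 4.0.16 in R 4.3.3: TMM scaling, filterByExpr with a minimum count of 10, a robust quasi-likelihood F test, and Benjamini-Hochberg adjustment over all genes tested with a threshold of 0.05. Each sex was fitted on its 12 samples, and sex differences and the control comparison on all 24. DESeq2 1.42.0 was an alternative. SE is the log2 fold change divided by the square root of F. For log2 CPM a prior count of 2 was used. The script was tested on simulated data.

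The Myh4 share was compared by an exact permutation test over 70 arrangements, and correlations by 100000 permutations (SciPy 1.17.1). All 7 genes were named whatever their values. Of each related list up to 4 genes with the smallest p in female sedentary pain against control were named, and any others were named as members of a small count. Some genes of these lists are counted but not reported by name here. The genes and lists were chosen with earlier results of these data known. Samples of a sex with the same replicate number did not deviate together in every pair (correlations from -0.320 to 0.415 in females and -0.647 to 0.592 in males), so the numbers were not used as pairs. Alternatives were other scalings, no filter, a replicate block, a term for the library-number batch, fits restricted to the compared pair of groups or extended to all 24 samples, each replicate left out, and, added after seeing the data, replicates 1 and 2 or 3 and 4 alone and the counts per gene list with 1 sample left out or with DESeq2. Gene positions are from GENCODE M21 (GRCm38), matched by gene ID for 54495 of 54532 IDs, and promoters from RefSeq (GRCm38.p6), matched for all 7 genes.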

Additional observations from a re-analysis of the deposited data

Results flagged for a closer look

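In 84 sets of 4 samples (7 genes in 6 groups, as log2 CPM and as percent of myosin counts), 7 held a sample whose gap to the others exceeded Dixon's critical value for 4 samples. Chance alone flags about 1 in 20 groups. Female control replicate 4 was low for Myh1, at a log2 CPM of 9.13 against 10.99 to 11.13 in the other controls, and for Myh2, at 7.77 against 10.27 to 10.53. Male control replicate 3 was low for Myh1, at 9.56 against 9.95 to 9.97, and for Myh7, at -2.25 against 5.51 to 6.69. Myh4 was low in male sedentary pain replicate 1, at 15.18 against 15.66 to 15.70, and in male active pain replicate 2, at 14.29 against 15.71 to 15.80. In that last sample Myh2 made up 1.80% of the myosin counts, against 0.00690% to 0.266% in the other three of its group.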

How the results depend on the processing

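With library size only as scaling, the median log2 fold change of all genes moved by 0.19 in female sedentary pain against control and by -0.21 in female active against sedentary pain. The number of myosin genes past the threshold in female sedentary pain against control, 1 as reported beside 33.5% of all genes, was 0 with library size only (31.6% of all genes), 0 without the low-count filter (16.2%), 0 with the replicate block (25.8%; Myh2 adjusted p = 0.0618) and 0 in replicates 1 and 2 alone (1.67%, 238 of 14274 genes). It was 2 with DESeq2 (Myh1, Myh2; 6109 of 17965 genes), 3 with the library-number batch term (Myh1, Myh2, Myh4; 37.1%) and 2 in replicates 3 and 4 alone (Myh1, Myh7; 22.4%). With only the 2 groups compared and with all 24 samples in 1 fit it stayed at 1, but the gene was Myh7 (adjusted p = 0.0372, 20.1% of all genes called) and Myh1 (0.0384, 34.9%). Leaving out 1 sample gave 0 to 3, with 3 (Myh1, Myh2, Myh8) without sedentary pain replicate 1. In female active against sedentary pain the count, 0 as reported beside 11.9%, was 2 with DESeq2 (Myh7, Myh7b; 19.2%), 1 with the batch term (Myh1; 18.9%), 1 with all 24 samples (Myh7b; 15.7%), 2 in replicates 3 and 4 alone (Myh1, Myh7; 15.0%) and 0 to 1 with 1 sample left out (Myh1 without sedentary pain replicate 1, adjusted p = 0.0263). The replicate block changed no other call among the 7 genes. In the other comparisons the count was 0 with each sample left out. The cause of these changes was not tested.

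The Myh4 share difference changed sign in females for active pain against control in replicates 1 and 2 alone (0.102 percentage points). In males it did so for sedentary pain against control in replicates 1 and 2 alone (0.118), and for active pain against control (0.282) and against sedentary pain (0.690) in replicates 3 and 4 alone. With 1 sample left out it lay between 1.51 and 4.13 points for female sedentary pain against control, -1.89 and 0.732 for female active pain against control, and -4.66 and -2.62 for female active against sedentary pain. The matching male ranges were -0.423 to 0.161, -1.33 to 0.750 and -1.19 to 0.895.

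The log2 fold changes below changed sign, and none of them passed as reported or in these fits. With library size only, the sex difference of sedentary pain against control was -0.0080 for Myh7b. With the batch term it was -0.054 for Myh7b, and Myh3 was at -0.0081 in female active pain against control. With the replicate block, Myh3 was at -0.022 in female active pain against control, Myh7 at 0.037 and Myh1 at -0.024 in male sedentary pain against control, and the sex difference of that change at -0.17 for Myh7b. In replicates 1 and 2 alone, female active pain against control gave -0.40 for Myh7b, -1.06 for Myh7, -1.70 for Myh3 and -0.34 for Myh1, and against sedentary pain -0.87 for Myh3. Males gave -0.18 (sedentary pain) and -0.071 (active pain) for Myh1 against control and -0.37 for Myh8 in active against sedentary pain. In replicates 3 and 4 alone, Myh3 was at 0.44 in male sedentary pain against control, and Myh1 at -0.046 and Myh4 at 0.069 in male active against sedentary pain.

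With 1 sample left out, female sedentary pain against control ranged from -1.99 to -0.41 for Myh8, -2.13 to -0.81 for Myh3 and -1.88 to -1.04 for Myh7b, and female active against sedentary pain from 0.0068 to 2.16 for Myh3, 0.30 to 1.66 for Myh8 and 0.20 to 0.52 for Myh4. Male values that moved by over 1.5 times were, against control, Myh7 (-1.44 to -0.62), Myh2 (-0.72 to -0.071) and Myh4 (-0.31 to -0.16) in sedentary pain and Myh2 (-3.11 to -1.46), Myh4 (-0.44 to -0.097) and Myh8 (-1.53 to -0.63) in active pain, and Myh2 (-2.64 to -1.01) in active against sedentary pain. Female active pain against control ranged from -0.86 to -0.30 for Myh2, -0.35 to -0.081 for Myh4 and 0.16 to 1.31 for Myh7b, and from -0.28 to 0.18 for Myh1, -0.041 (without active pain replicate 3) to 1.37 for Myh7, -1.13 to 0.42 for Myh3 and -0.64 to 0.24 for Myh8. Male sedentary pain against control ranged from -0.50 to 0.15 for Myh3 and -0.0995 to 0.30 for Myh1, and male active pain against control from -0.011 to 0.26 for Myh1. Male active against sedentary pain ranged from -0.21 to 0.22 for Myh1, -0.19 to 0.17 for Myh4, -0.013 to 0.54 for Myh7b and -0.37 to 0.54 for Myh8. The sex difference ranged from -0.79 to 0.79 for Myh8 and -0.52 to 0.37 for Myh7b in sedentary pain against control, and from -0.098 to 0.38 for Myh1 and -0.30 to 0.11 for Myh4 in active pain against control. Among the related lists, DESeq2 called 4 of 8 light chain and kinase genes, 5 of 8 folding and turnover genes, 2 of 13 regulators and 1 of 9 thick filament genes in female active against sedentary pain, where it called 19.2% of all genes, against 0, 2, 0 and 0 in edgeR (11.9%). In female sedentary pain against control it called 2 light chain and kinase genes and 2 slow markers of 8 each (6109 of 17965 genes in all), against 1 of each in edgeR (33.5% of all genes). Of the other log2 fold changes, 549 kept direction and side of the threshold, 13 passed newly and 7 no longer did, not counting fits with 1 sample left out. Myh3 and Myh7b rest on at most 121 counts per sample, which limits what could be detected for them.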
